A study of Mus musculus with 85 samples.

Results

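Sorted endothelial cells from brains labelled Kansl3 nKO (neural knockout of Kansl3) were compared with sorted endothelial cells from Cre control brains. The comparison was chosen by its libraries alone: the 3 endothelial libraries with the Kansl3 nKO genotype and the 4 endothelial libraries with the Cre control genotype, 7 of the 85 samples of the series. The series deleted Mof (Kat8), Kansl2 or Kansl3 in the developing mouse brain with Nestin-Cre and profiled whole brain and sorted cell types. All 7 libraries came from E14.5 embryonic brains, and both groups carried the Cre driver, so the Kansl3 allele is the labelled difference. Endothelial cells were isolated by flow sorting with the technique the labels call EMBRACE, and their RNA was amplified with the SMART-Seq v4 low-input kit. Libraries are called by the names in their titles: Cre89, Cre91, Cre94 and Cre130, and K3-194, K3-245 and K3-257. Their numbers do not overlap between the groups, and which library ran on which of the named sequencers is not given in the sources used here, so a sequencing run and the genotype cannot be told apart. The labels do not say that each library is a separate embryo. P-values then measure the spread between these samples, which may be technical.

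The NSL complex is a chromatin regulator in which the acetyltransferase MOF (encoded by Kat8) works with KANSL subunits at the promoters of many broadly expressed genes. Nestin-Cre acts mainly in neural progenitors and the neurons and glia that descend from them. Brain endothelial cells line the vessels and form the blood-brain barrier under the influence of neighbouring neural cells and pericytes. The comparison asks how vessel cells differ between brains with and without the deletion in neural tissue. Endothelial cells also act as sentinels: through NF-kB and interferon-regulatory factors they switch on adhesion and antigen-presentation genes, and through immediate early genes they respond within minutes to growth factors, flow and stress.

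No gene passed the test across all genes with every library at equal weight. The genes nearest to passing with higher values in endothelial cells labelled Kansl3 nKO included the immediate early gene Junb and the interferon-regulatory gene Irf1, and those with lower values included the neural progenitor gene Hes5. Irf1, a transcription factor induced by interferon, averaged 703 ± 198 scaled reads (SD, n = 3) against 89.6 ± 5.50 (SD, n = 4). Junb, a subunit of the AP-1 transcription factor, averaged 12301 ± 2066 (SD, n = 3) against 4215 ± 454 (SD, n = 4). Hes5, a Notch target of neural progenitors, averaged 8.74 ± 7.02 (SD, n = 3) against 226 ± 73.9 (SD, n = 4). A scaled read is a read count divided by the size factor of its library, so values compare libraries for one gene and not genes with each other.

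None of the 16466 genes tested passed an adjusted p of 0.05 (limma on log2(value + 1), Benjamini-Hochberg), and 1055 (6.41%) had an unadjusted p under 0.05. The smallest adjusted p was 0.0504, for Junb and for Dusp2. edgeR's quasi-likelihood test on the recovered reads also called 0 genes, with 809 at an unadjusted p under 0.05. DESeq2 on the same reads called 216 genes (1.25% of those with an adjusted p), 99 of them higher (0.573%) and the rest lower (0.678%), and the authors' deposited table calls 219, with 100 of them higher. limma called 2 genes with a pseudocount of 5 (0.0121%) and at a mean of at least 50 (0.0163%), and 3 after quantile normalization (0.0182%). The call therefore depends on the test, and the genes below are given by their values.

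The library Cre130 stood apart from the other controls. Mitochondrial genes took 7.69% of its reads against 1.11 to 2.18% in the 6 others, its 20 highest genes took 15.5% against 6.06 to 7.39%, and limma's sample quality weighting gave it a weight of 0.219. With Cre130 left out, an alternative planned with all other single libraries, limma called 16 genes (0.099%), all higher, and edgeR, added after seeing the data, called 12. With Cre130 kept but weighted down, limma called 38 genes higher (0.231%) and 4 lower (0.0243%). Counts without Cre130 or with weights are given beside only some gene groups, and the count of separated members moved in others too. Without Cre130, 14 immediate early genes stood above and 1 below every remaining control (10 and 1 with all libraries). For the integrated stress response the counts were 7 and 2 (5 and 1 with all libraries), and for neuron markers 0 and 6 (0 and 2). Without Cre130, 7.54% of all genes stood above and 7.17% below every remaining control. No pair of libraries within a group looked like a duplicate among 9 pairs compared.

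The 16 genes called without Cre130 were Adamts1, Junb, Nfkbid, Dusp2, Egr1, Nr4a1, Fth1, Gm8730, Nr4a2, Igfbp3, Irf1, Nfkbiz, Ppp1r10, Ifitm3, Errfi1 and Ccnl1 (named after their values were seen). Of these, 3 are on the immediate early list (Junb, Egr1 and Nr4a1) and 0 on the Toll-like receptor and NF-kB list. That list does not include the NF-kB regulator genes Nfkbid and Nfkbiz, which were among the 16 (2.29 and 1.82, limma adjusted p = 0.0115 and 0.0269). With Cre130 kept, the groups overlapped for Nfkbid and Nfkbiz, as they did for Ppp1r10 and Ccnl1. The 4 genes lower under quality weights were Ndrg2, 8430408G22Rik, Pcdh18 and Apln, the last of which encodes apelin, a peptide secreted by sprouting endothelial cells. Leaving out any other single library left 0 genes called.

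A lower level of the labelled gene was not detected in these cells. Kansl3 stood at 693, 613, 1009 and 1557 scaled reads in the Cre libraries and at 684, 1339 and 631 in those labelled Kansl3 nKO, a log2 difference of -0.12 ± 0.39 (SE, limma adjusted p = 0.96). The groups overlapped. A gene total need not show a deletion of part of a gene, and Nestin-Cre is a neural driver, so the value checks neither the label nor the deletion. Kansl2 and Kat8 differed by -0.01 ± 0.28 and -0.20 ± 0.37 (SE; adjusted p = 0.999 and 0.931). The sign of each of the 3 differences changed with the processing. The 9 listed NSL subunits and partners, all tested, had a median difference of -0.10, and none had groups that did not overlap.

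The sorted cells carried the markers of endothelium. The 18 endothelial identity genes took 1.04 to 1.48% of reads in the Cre libraries and 1.39 to 1.49% in those labelled Kansl3 nKO. Pecam1 stood at 7634 to 14145 and Cldn5, the tight junction claudin of brain endothelium, at 24545 to 32263 over all 7 libraries, with overlapping groups. The identity list had a median difference of 0.11, beside 0.03 over all genes tested. Within it, Sox7 and Fli1, transcription factors of the endothelial lineage, stood above every control, and Eng, a TGF-beta co-receptor, stood below. Over all genes tested, 4.35% stood above and 3.89% below every control. Sox7 was at 3533, 3548, 3669 and 2749 in the Cre libraries and at 4455, 5561 and 6742 in the others, a log2 difference of 0.72 ± 0.19 (SE, adjusted p = 0.538). All 7 libraries had reads on the Y-linked Ddx3y. Another Y-linked gene, Uty, did not overlap between the groups and was called higher by DESeq2 (0.94, adjusted p = 0.0224). The labels give no sex, and a difference in sex between the groups was not tested.

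The upstream sequences of 4 of the genes that lead the comparison are shown because each holds the letters of a site for a signal-dependent factor. Each is the 250 bases before the annotated start in RefSeq (GRCm38.p6, which has the coordinates of the authors' mm10), read 5′ to 3′ on the gene's strand, with the matched letters in capitals. Irf1 lies on the plus strand (chr11:53769764-53770013), Icam1 on the plus strand (chr9:21015690-21015939), Dusp1 on the minus strand (chr17:26508473-26508722) and Plk2 on the plus strand (chr13:110394794-110395043).
Irf1: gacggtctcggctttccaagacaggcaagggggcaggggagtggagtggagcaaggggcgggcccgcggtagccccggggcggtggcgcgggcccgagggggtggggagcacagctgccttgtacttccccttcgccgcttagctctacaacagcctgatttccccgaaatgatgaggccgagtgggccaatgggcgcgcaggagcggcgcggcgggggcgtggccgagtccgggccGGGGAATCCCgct
Icam1: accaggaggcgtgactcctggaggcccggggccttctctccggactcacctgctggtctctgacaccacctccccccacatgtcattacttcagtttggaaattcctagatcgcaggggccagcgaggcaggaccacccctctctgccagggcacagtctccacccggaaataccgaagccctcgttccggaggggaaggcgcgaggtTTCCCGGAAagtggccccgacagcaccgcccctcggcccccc
Dusp1: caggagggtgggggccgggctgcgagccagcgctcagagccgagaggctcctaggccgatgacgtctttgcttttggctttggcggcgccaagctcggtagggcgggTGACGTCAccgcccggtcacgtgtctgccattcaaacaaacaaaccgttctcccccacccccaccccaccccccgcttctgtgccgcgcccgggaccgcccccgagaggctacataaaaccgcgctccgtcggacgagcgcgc
Plk2: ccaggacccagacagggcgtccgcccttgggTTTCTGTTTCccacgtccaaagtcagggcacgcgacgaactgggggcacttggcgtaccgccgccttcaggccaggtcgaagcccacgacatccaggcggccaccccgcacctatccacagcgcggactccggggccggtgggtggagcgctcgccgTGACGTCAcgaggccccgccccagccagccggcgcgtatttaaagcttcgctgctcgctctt

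In Irf1 the capitals mark GGGGAATCCC, a match to the NF-kB consensus, 13 to 4 bases before the start. In Icam1 they mark TTCCCGGAA, a match to the STAT letters TTCCNGGAA, 42 to 34 bases before the start. Dusp1 and Plk2 hold the full CREB site TGACGTCA at 143 to 136 and at 62 to 55 bases before the start, and Plk2 also holds the interferon-stimulated response element (ISRE) core on the other strand, 219 to 210 bases before the start. Over the 32851 windows of the same length, 1.55% held the full CREB site, 3.9% the NF-kB consensus, 0.913% the STAT letters and 2.98% the ISRE core, on either strand. Of the 15 higher genes named here, all but Egr1 and Ppp1r3b had an entry to search. These 13 genes had 20 windows between them, several of them of Sgk1. The CREB site was in 3 of these windows (Dusp1, Plk2 and Ppp1r15a), the ISRE core in 4, the NF-kB consensus in 1 (Irf1) and the AP-1 site TGAGTCA in none, where 4.46% of all windows hold it. Of the 14 windows of 11 lower genes, 2 held the NF-kB consensus (both of Ndrg2) and none the CREB, STAT, AP-1 or ISRE letters. The serum response CArG box, also searched, was in 0 of the 20 higher windows and in 1 lower window (Hes5). Over all windows, 1.47% held it. A match describes letters and not binding, and no binding was measured in endothelial cells.

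Immediate early genes are transcribed within minutes of a stimulus without new protein synthesis, and many encode transcription factors or feedback phosphatases. Of 22 tested members, 18 were higher on average, and 10 stood above every control, where 4.35% of all genes did. 1 stood below every control, where 3.89% did. The median log2 difference was 0.76 beside 0.03 over all genes tested, and 0.97 without Cre130. Together the listed genes took 0.878 to 0.919% of reads in the libraries labelled Kansl3 nKO and 0.402 to 0.535% in the Cre libraries. None passed the test with all libraries at equal weight, 9 were called higher under quality weights and 3 without Cre130 (0.231% and 0.099% of all genes).

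Junb stood at 3653, 4536, 4628 and 4043 scaled reads in the Cre libraries and at 11118, 11099 and 14686 in those labelled Kansl3 nKO. Every library labelled Kansl3 nKO was above every control, and Cre130 lay among the other controls. The log2 difference was 1.54 ± 0.17 (SE, adjusted p = 0.0504), or 1.52 without Cre130 (adjusted p = 0.0115). Egr1, a zinc finger factor induced by growth factors and flow, stood at 1994, 3493, 3374 and 5790.5 in the controls and at 10317, 13316 and 10940 in the others. Here Cre130 was the highest control, and the groups still did not overlap (1.75 ± 0.30 SE, adjusted p = 0.206, or 0.0115 without Cre130). Dusp1, a phosphatase that shuts off MAP kinases and whose upstream CREB site is printed above, stood at 3279, 5188, 5945 and 4139 and then at 12127, 10922 and 14553 (1.46 ± 0.22 SE, adjusted p = 0.112). Fos, the AP-1 partner of Junb, differed by 1.08 ± 0.21 (SE, adjusted p = 0.309) and passed under quality weights (adjusted p = 0.0113).

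The members did not all point one way. Ctgf and Cyr61, matricellular targets of YAP and of the same serum response, were lower on average by -1.24 ± 0.33 and -0.45 ± 0.18 (SE; adjusted p = 0.538 and 0.759), and Ctgf was below every control. Dusp2, a second MAP kinase phosphatase outside the list, stood at 2095, 1707, 1935 and 1656 in the Cre libraries and at 4980, 4869 and 5897 in the others. That is a log2 difference of 1.51 ± 0.18 (SE, adjusted p = 0.0504), with controls and the others far apart.

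**Figure D1:**
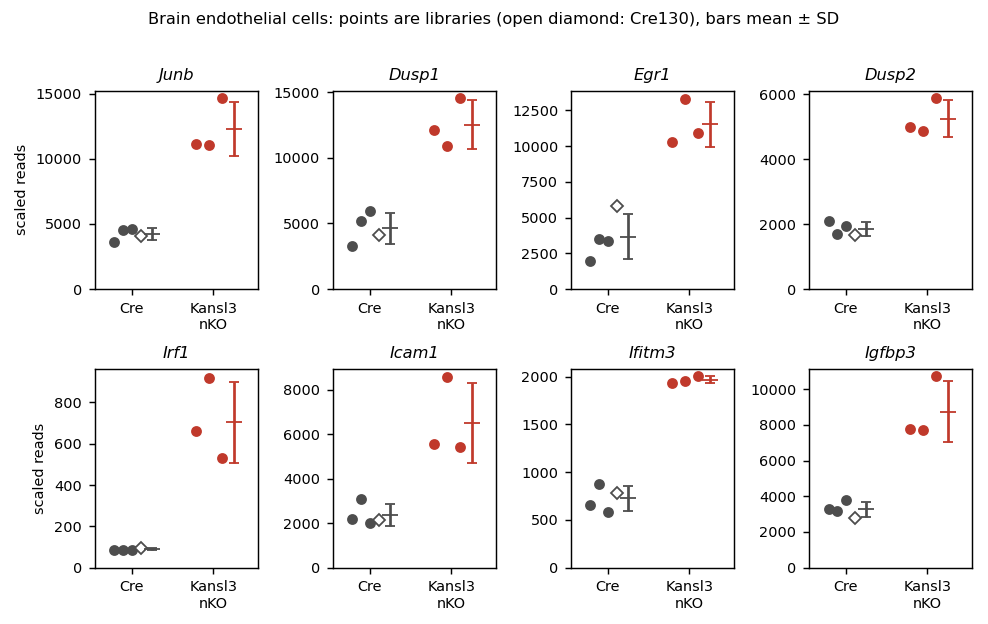
Scaled reads (vertical axes, from 0) of 8 genes in the 4 Cre and 3 Kansl3 nKO endothelial libraries; points are libraries, the open diamond is Cre130, and bars give mean ± SD. In each panel the 3 libraries labelled Kansl3 nKO sit above all 4 controls, as for Irf1 at 531 to 919 against 85.4 to 97.7.

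Toll-like receptors and their adaptor MYD88 pass danger signals to NF-kB, which then induces its own inhibitors and adhesion molecules. Of 25 tested members, 19 were higher on average, 6 stood above every control and 1 (Irak1) below (4.35% and 3.89% of all genes), with a median of 0.56, or 0.52 without Cre130. The listed genes took 0.228 to 0.296% of reads against 0.144 to 0.164% in the controls. Under quality weights 2 were called higher (Icam1 and Nfkbia), and 0 without Cre130 (0.231% and 0.099% of all genes).

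Icam1, the adhesion molecule that captures leukocytes on inflamed endothelium, stood at 2169, 3078, 2013 and 2151 in the Cre libraries. In those labelled Kansl3 nKO it stood at 5552, 8577 and 5406, all above the controls (1.46 ± 0.23 SE, adjusted p = 0.129, and 0.0086 under quality weights). Myd88 stood at 303, 259, 340.0 and 231 and then at 642.97, 762 and 1211 (1.58 ± 0.34 SE, adjusted p = 0.412). Among inhibitors of NF-kB signalling, Nfkbia, which encodes IkB-alpha, differed by 0.80 ± 0.19 and Tnfaip3, which encodes the ubiquitin editor A20, by 1.72 ± 0.53 (SE; adjusted p = 0.509 and 0.652). For Tnfaip3 the highest control, Cre130 at 590, came close to the lowest of the other group at 632.

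The interferon list was mixed. Interferon-stimulated genes comprise antiviral effectors and the machinery that loads peptides on MHC class I. Of 24 tested members, 15 were higher on average, 4 stood above every control and 1 below (4.35% and 3.89% of all genes), with a median of 0.35, or 0.24 without Cre130. Without Cre130 2 were called higher (Irf1 and Ifitm3), and 2 under quality weights (0.099% and 0.231% of all genes). Irf1 stood at 88.0, 85.4, 87.2 and 97.7 in the Cre libraries and at 660, 919 and 531 in those labelled Kansl3 nKO. The 4 controls were nearly equal, and the lowest of the others was far above them (2.92 ± 0.42 SE, adjusted p = 0.105, and 0.0206 without Cre130). Ifitm3, a membrane protein that blocks virus entry, stood at 661.6, 875, 583 and 787 and then at 1936, 1959 and 2008 (1.45 ± 0.23 SE, adjusted p = 0.129, and 0.0425 without Cre130). B2m, the light chain of MHC class I, differed by 0.67 ± 0.20 (SE, adjusted p = 0.652). Some interferon targets did not follow: Irf7 and Isg15 had overlapping groups, and Mx2 was below every control at 0 to 8.66 against 22.3 to 93.8.

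**Figure D2:**
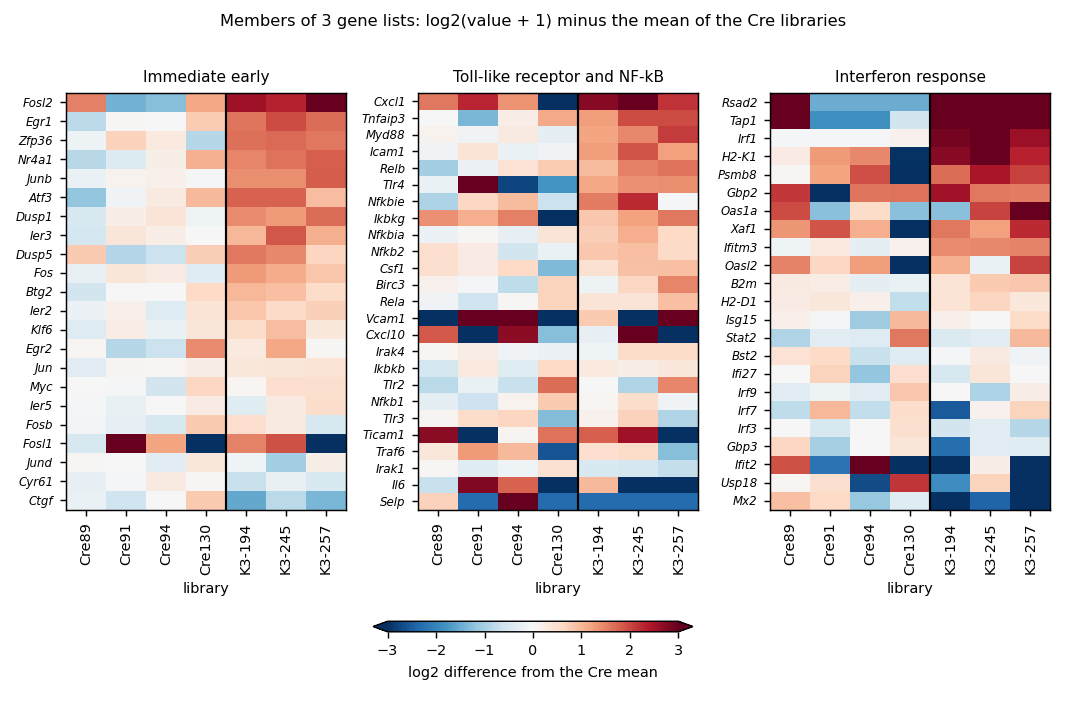
Colour gives log2(value + 1) of the tested members of 3 gene lists (1 interferon list member is not drawn) minus its mean over the Cre libraries, one column per library, with a line between the 4 Cre and 3 Kansl3 nKO libraries. In the immediate early panel 10 of 22 members stand above every control in the libraries labelled Kansl3 nKO, and on the interferon list 4 of 24.

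Of 21 tested p53 targets, 15 were higher on average and 3 stood above every control (4.35% of all genes), and 3 were called higher under quality weights (0.231%). Their median was 0.78, or 0.15 without Cre130, while their share of reads did not overlap between groups (0.369 to 0.382% against 0.202 to 0.270%). Plk2, a kinase induced by p53 and by growth factors, stood at 9352, 10830, 11640 and 8704 in the Cre libraries and at 18301, 17561 and 20315 in the others (0.89 ± 0.15 SE, adjusted p = 0.2, and 0.00996 under quality weights). Cdkn1a, the p21 cell cycle inhibitor, differed by 0.86 ± 0.20, and Mdm2, the ubiquitin ligase that degrades p53, by 0.92 ± 0.31 (SE; adjusted p = 0.418 and 0.695). Cdkn1a and Mdm2 stood above every control.

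Of 20 tested members of the integrated stress response, which follows phosphorylation of eIF2alpha, 15 were higher on average, 5 stood above every control and 1 below (4.35% and 3.89% of all genes). The median was 0.74, or 0.40 without Cre130, and 2 members were called higher under quality weights (0.231% of all genes). Their share of reads overlapped: it was 0.582 to 0.624% in the libraries labelled Kansl3 nKO, 0.611 to 0.692% in the other 3 controls and 0.388% in Cre130. Ppp1r15a (GADD34), the phosphatase subunit that ends the response, stood at 2046, 1757, 3025 and 3101 and then at 6080.1, 5243 and 5753, with no overlap (1.24 ± 0.23 SE, adjusted p = 0.264, and 0.0086 under quality weights). Atf3 belongs to this list and to the immediate early genes and differed by 1.49 ± 0.44 (SE, adjusted p = 0.643), with Cre130 above the lowest of the other group. Ddit3 (CHOP) was below every control. Heat shock genes showed 2 of 12 above and 2 below every control, with a median of 0.09.

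Growth factor and metabolic genes gave single large differences. Igfbp3, a secreted protein that binds insulin-like growth factors, stood at 3295, 3164, 3790 and 2799 in the Cre libraries and at 7781, 7695 and 10717 in those labelled Kansl3 nKO. The groups were far apart (1.41 ± 0.18 SE, adjusted p = 0.0836, and 0.017 without Cre130). Sgk1, a kinase induced by glucocorticoids and serum, stood at 2487, 3180, 3533 and 1927 and then at 5944, 6836 and 6278 (1.23 ± 0.22 SE, adjusted p = 0.252). Of the 19 tested growth factor and hormone genes, 5 stood above every control and 2 below (4.35% and 3.89% of all genes). Without Cre130 1 was called higher, and 2 under quality weights (0.099% and 0.231% of all genes).

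Fth1, the heavy chain of the iron store ferritin, stood at 18537, 19258, 16012 and 17440 in the Cre libraries and at 32722, 33297 and 34891 in the others. Its spread was small within both groups (0.92 ± 0.13 SE, adjusted p = 0.0971, and 0.0154 without Cre130). Reads of Fth1 can be shared with near-identical copies in the genome, so its level is uncertain. Ppp1r3b, which targets a phosphatase to glycogen, had no read in any control and 50.4, 158 and 217 scaled reads in the other 3 libraries. Against a floor of 3 reads per control library that is at least 45.9-fold higher (adjusted p = 0.264). Litaf, an endosomal protein named for its induction by lipopolysaccharide, and Pnrc1, a nuclear receptor coregulator, differed by 1.37 ± 0.24 and 1.06 ± 0.20 (SE; adjusted p = 0.22 and 0.265), with no overlap between groups.

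Lower values were found for other genes. Among the 15 named by smallest p, many are known from neurons and neural progenitors, and the group sat at low values in these libraries. Ndrg2, known from astrocytes and radial glia, stood at 77.4, 150.4, 124 and 437 in the Cre libraries and at 0 in all 3 others, which against the floor of 3 reads per library is at least 66.9-fold lower (adjusted p = 0.129, and 0.00948 under quality weights). Hes5 stood at 140.8, 302, 190 and 271 and then at 15.8, 8.66 and 1.76 (-4.83 ± 0.91 SE, adjusted p = 0.265). Ptprz1, a receptor phosphatase of radial glia, stood at 144, 686, 313 and 53.1 and then at 24.7, 0 and 0. The 3 libraries labelled Kansl3 nKO were lowest in each case, and the controls varied widely.

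Ncam1, the neural cell adhesion molecule, stood at 710, 776, 983 and 916 in the Cre libraries and at 331, 298 and 107 in the others (-1.93 ± 0.42 SE, adjusted p = 0.415). Dpysl3, a cytoskeletal protein of growing axons, differed by -1.64 ± 0.30, and Ina, the neurofilament alpha-internexin, by -2.96 ± 0.60 (SE; adjusted p = 0.264 and 0.323). Miat, a long noncoding RNA abundant in neurons, stood at 482, 397, 413 and 1159 and then at 169, 108 and 80.8, with Cre130 far above the other controls (-2.26 ± 0.50 SE, adjusted p = 0.415). Ctnna2 (the neural alpha-catenin), Gpc1 (a heparan sulfate proteoglycan) and Bex2 were below every control with differences of -6.24, -5.89 and -2.68 (adjusted p = 0.383, 0.301 and 0.415). Ctnna2 and Gpc1 were at 0 in K3-257.

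Markers of other cell types were lower beside these genes. Of 12 tested neuron markers, 12 were lower on average and 2 (Tubb3 and Gad1) were below every control, where 3.89% of all genes were. The median of the 12 was -2.01, or -2.22 without Cre130. Their summed share of reads was 0.0194 to 0.0406% in the Cre libraries and 0.0079 to 0.0161% in the others, so the groups did not overlap. Of 12 neural progenitor markers, 4 (Hes5, Ptprz1, Fabp7 and Sox2) were below every control (3.89% of all genes). On average 10 of the 12 were lower, with a median of -2.13 over the 12. Their summed share overlapped (0.109 to 0.138% against 0.101 to 0.129%), since Vim, which endothelium also expresses, makes up most of it. Emx2 was at 0 in all 3 libraries labelled Kansl3 nKO and in Cre130.

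Pericyte and smooth muscle markers were lower as well. Of 10 tested, 9 were lower on average and 3 were below every control (3.89% of all genes). The median of the 10 was -0.72, or -0.52 without Cre130. The summed share of the listed markers was 0.0197 to 0.0275% against 0.0362 to 0.0455%. Vtn, the vitronectin made by brain pericytes, stood at 866, 905, 1042 and 1390.2 in the Cre libraries and at 494, 429 and 269 in the others (-1.42 ± 0.31 SE, adjusted p = 0.415). Rgs5, a pericyte regulator of G-protein signalling, differed by -0.89 ± 0.25 (SE, adjusted p = 0.549). Myh11, a smooth muscle myosin, was at 0 in all 4 controls, and Acta2, smooth muscle actin, stood at 0 to 8.62 in them. Heyl, a Notch target found in mural cells, was at 380, 454, 691 and 1012.5 and then at 151, 118 and 131 (-2.14 ± 0.43 SE, adjusted p = 0.316). Of 5 tested fibroblast markers 2 were below every control (3.89% of all genes), with shares of 0.0137 to 0.0186% and 0.0082 to 0.0143%. In sorted bulk cells, fewer cells of another type and less RNA per such cell cannot be told apart. The part of other cell types in the lower genes was not tested.

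Markers of blood and immune cells were at trace levels beside the inflammatory genes. Microglia and macrophage markers took 0.0036 to 0.0127% of reads in the Cre libraries and 0.0025 to 0.0068% in the others, and C1qa and C1qc were at 0 in all 7. Neutrophil and monocyte markers took at most 0.0056%, and S100a9 was at 0 in all 7. Erythroid markers overlapped between groups (0.0357 to 0.0869% and 0.0168 to 0.0759%).

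**Figure D3:**
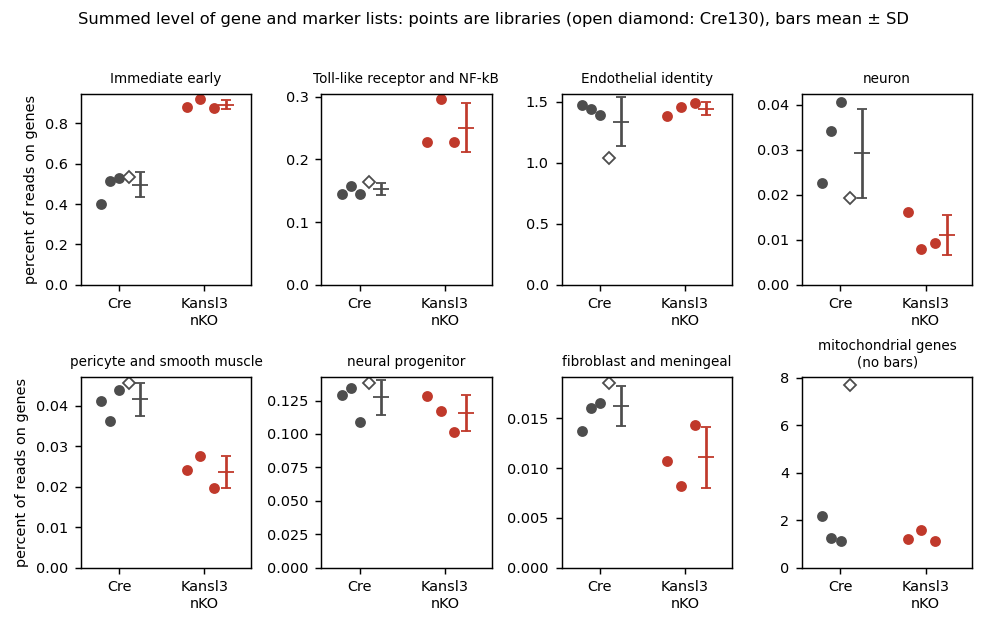
Percent of gene reads (vertical axes, from 0) taken by gene and marker lists and by mitochondrial genes; points are libraries, the open diamond is Cre130, and bars give mean ± SD (none for mitochondrial genes). Immediate early genes are at 0.878 to 0.919% in the 3 Kansl3 nKO libraries against 0.402 to 0.535% in the 4 controls, and neuron and pericyte markers lie below the controls.

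**Figure D4:**
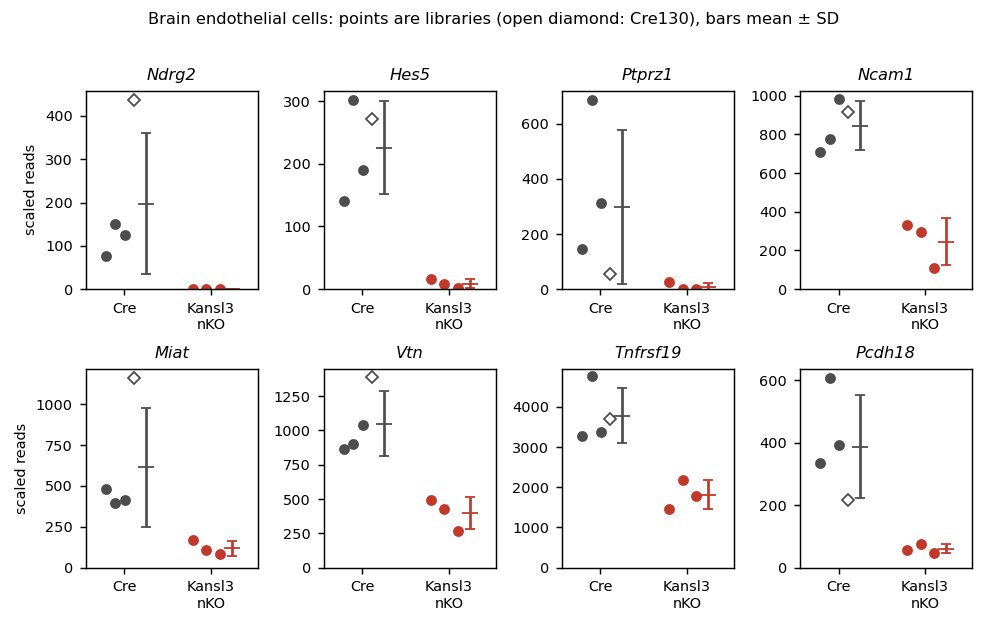
Scaled reads (vertical axes, from 0) of 8 lower genes in the 4 Cre and 3 Kansl3 nKO endothelial libraries; points are libraries, the open diamond is Cre130, and bars give mean ± SD. Ndrg2 is at 0 in all 3 libraries labelled Kansl3 nKO, and Cre130 is the highest control for Ndrg2, Miat and Vtn.

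Tnfrsf19, Pcdh18 and Pomt2, also among the lower genes, are not on the marker lists of other cell types. Absence from a list does not place a gene in endothelium. In Cre libraries Pcdh18 averaged 2389 scaled reads in sorted pericytes and 608 in neural cells, beside 388 in endothelial cells. Tnfrsf19 and Pomt2 averaged more in endothelial cells (3778 and 780) than in pericytes or neural cells. These tables were scaled separately, and the part of other cell types in these genes was not tested. Tnfrsf19 (TROY), a receptor known as a Wnt target in brain endothelium, stood at 3274, 4769, 3370.5 and 3698 in the Cre libraries and at 1470, 2183 and 1779 in the others (-1.06 ± 0.21 SE, adjusted p = 0.316). It was below every control (3.89% of all genes were), while the other 16 tested genes of the Wnt list overlapped. The list median was 0.08. Lef1 and Nkd1, other targets of the pathway, differed by -0.21 ± 0.21 and -0.31 ± 0.22 (SE; adjusted p = 0.86 and 0.828). Pcdh18, a protocadherin, stood at 334, 608, 394 and 215 and then at 57.3, 75.8 and 47.4 (-2.60 ± 0.53 SE, adjusted p = 0.323, and 0.0249 under quality weights). Pomt2, a protein O-mannosyltransferase, differed by -1.68 ± 0.35 (SE, adjusted p = 0.327).

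Genes of vessel growth split in both directions. Of 30 tested genes of VEGF, angiopoietin and tip cell signalling, 3 stood above and 3 below every control (4.35% and 3.89% of all genes), with a median of -0.07. Without Cre130 the counts were 4 and 8 (7.54% and 7.17% of all genes). limma called 1 higher without Cre130 (Igfbp3), and 1 higher and 1 lower under quality weights (0.099%, 0.231% and 0.0243% of all genes). Apln stood at 3000, 2509, 3791 and 2032 in the Cre libraries and at 1518, 1489 and 1224 in the others, without overlap (-0.97 ± 0.24 SE, adjusted p = 0.509, and 0.0369 under quality weights). Its receptor Aplnr stood above every control, from 13437, 14681, 14536 and 7491 to 18754, 23292 and 25523 (0.88 ± 0.24 SE, adjusted p = 0.538). Rgcc, a cell cycle regulator induced by hypoxia and complement, was above every control as well (0.78 ± 0.22 SE, adjusted p = 0.561).

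Flow and BMP responses gave a few such genes. Adamts1, a secreted protease that cleaves versican, stood at 1089, 1442, 1120 and 2997 in the Cre libraries and at 5507, 5815 and 4087 in the others. Cre130 lay between the other controls and the Kansl3 nKO group (1.74 ± 0.34 SE, adjusted p = 0.301, and 2.07 with adjusted p = 0.0115 without Cre130). Edn1, the vasoconstrictor endothelin, was below every control (-1.10 ± 0.30 SE, adjusted p = 0.549), and Thbd, the anticoagulant thrombomodulin, above (0.89 ± 0.26 SE, adjusted p = 0.634). The BMP targets Id1 and Id3 were both below every control, at -0.81 ± 0.23 and -0.42 ± 0.16 (SE; adjusted p = 0.569 and 0.749).

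For the barrier itself, the reading of the transporters turned on Cre130. Of 14 tested blood-brain barrier transporters, 1 stood above and 1 below every control (4.35% and 3.89% of all genes), with a median of -0.07. Without Cre130, 1 stood above and 4 below every control (7.17% of all genes below), with a median of -0.29, and DESeq2 called 4 lower there (1.2% of all genes). The listed transporters took 1.386 to 1.596% of reads in the libraries labelled Kansl3 nKO, 1.74 to 1.76% in the other 3 controls and 0.922% in Cre130. limma called none of them with or without Cre130. Slc7a1, a cationic amino acid transporter, was the lower one, at 15782, 16029, 14508 and 13863 and then at 10179, 12567 and 9315 (-0.50 ± 0.15 SE, adjusted p = 0.649). Slc38a5, a glutamine transporter of barrier vessels, was the higher one (0.59 ± 0.23 SE, adjusted p = 0.759), and its difference was 0.36 without Cre130. None of 17 tested junction genes had groups that did not overlap. Among 7 tested permeability and caveolar genes, Cav1 was above every control (0.43 ± 0.20 SE, adjusted p = 0.778), and Plvap, a marker of leaky vessels, overlapped.

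Metabolic and matrix lists held small differences. The counts here are read against 4.35% of all genes above and 3.89% below every control. Of 18 tested glycolytic genes, 5 were below every control and 0 above, with a median of -0.15. Eno1, the enolase of glycolysis, stood at 10138, 11996, 10652 and 7853 in the Cre libraries and at 6988, 5680.3 and 6526 in the others (-0.66 ± 0.18 SE, adjusted p = 0.538). Of 56 respiratory chain genes, 46 were lower on average, but by little (median -0.17), and 2 were below every control. Of 28 basement membrane and matrix genes, 4 were above and 3 below: Col18a1, the source of endostatin, differed by 0.66 ± 0.17 and Mmp9, a gelatinase, by -0.97 ± 0.27 (SE; adjusted p = 0.529 and 0.543). In the cell cycle list 1 of 26 genes did not overlap, Top2a, at 3044, 3068, 2741 and 3441 and then 2071, 1869 and 1534 (-0.76 ± 0.19 SE, adjusted p = 0.511), while Mki67 and 24 others did.

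In the remaining lists the counts are read against 4.35% of all genes above and 3.89% below every control. Above and below stood 3 and 2 of 22 hypoxia genes (median -0.20), 3 and 0 of 15 NRF2 and heme genes (0.19), 2 and 0 of 14 arterial and venous genes (0.32), 1 and 4 of 22 TGF-beta and BMP genes (-0.09), and 2 and 1 of 16 flow genes (0.18). The counts were 1 and 2 of 22 for fatty acid uptake (median 0.40), 0 and 0 of 29 for fatty acid oxidation (0.13), 1 and 1 of 23 for cholesterol synthesis (-0.18), 1 and 0 of 18 for the unfolded protein response (0.12), 0 and 1 of 11 for barrier transcription factors (-0.20) and 1 and 0 of 4 for the MSL complex (0.13). For the hypoxia list the counts were 4 above and 7 below without Cre130 (7.54% and 7.17% of all genes), and its share of reads was 0.535 to 0.571% in the libraries labelled Kansl3 nKO, 0.631 to 0.698% in the other 3 controls and 0.366% in Cre130. None of the members of these lists passed with all libraries at equal weight. Without Cre130 and under quality weights (0.099% and 0.231% of all genes) 1 flow gene (Adamts1) and 1 NRF2 and heme gene (Fth1) were called higher.

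How did the same genes stand in other cells and knockouts? Endothelial cells from Mof nKO brains (n = 4) and Kansl2 nKO brains (n = 3) were compared with the same 4 Cre libraries, so their differences share whatever is particular to those controls, Cre130 included. limma called 0 genes in both, with 1482 of 17152 (Mof) and 975 of 16649 (Kansl2) at an unadjusted p under 0.05. edgeR, run for Kansl2 alone, also called 0. The Mof group includes a library, M436, whose name matches no sample title and which was placed there by its first letter. A titled library of that group had no values under its own name. Irf1 stood at a log2 difference of 2.47 under Mof and 2.81 under Kansl2, beside 2.92 under Kansl3. Igfbp3 was at 1.35, 1.28 and 1.41 in the same order, and Hes5 at -4.54, -4.88 and -4.83. Junb was at 0.93, 0.73 and 1.54, Plk2 at 0.30, 0.07 and 0.89, and Fth1 at 0.12, 0.38 and 0.92. All 15 higher genes had a positive and all 15 lower genes a negative difference under Mof and under Kansl2, against the same controls. Markers of other cell types were lower there too. Their medians, in the same order, were -1.21, -2.28 and -2.01 for neurons and -1.41, -2.04 and -2.13 for neural progenitors. For pericytes and smooth muscle they were -1.02, -2.17 and -0.72. The differences between the knockouts were not tested, since the tables were scaled separately.

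Pericytes and neural cells labelled Kansl3 nKO had control libraries of their own. In sorted pericytes limma called 269 genes higher (1.88% of 14325) and 177 lower (1.24%), and between 150 and 495 in all when single pericyte libraries were left out. In sorted neural cells labelled Kansl3 nKO it called 3842 higher (26.4% of 14534) and 4181 lower (28.8%). There the total of Kansl3 itself was higher by 0.28 (adjusted p = 0.0054) and Kat8 fell by 1.16 (adjusted p = 1.0e-06), so the gene total does not show the labelled deletion in neural cells either. Of the 15 endothelial higher genes, 15 were tested in pericytes, where 10 had a positive difference and 5 rose (Fth1, Icam1, Ifitm3, Plk2 and Litaf). Icam1 rose by 2.41 in pericytes (adjusted p = 0.0028), Ifitm3 by 1.41 (0.0028) and Litaf by 1.05 (0.0074). Junb, Dusp1 and Egr1 stood at -0.21, 0.03 and -0.22 there (adjusted p = 0.76, 0.95 and 0.39). In neural cells 11 of the 15 were tested, all 11 had a positive difference, and 9 rose, where 26.4% of all genes did. Egr1 rose there by 0.84 (adjusted p = 4.9e-06) and Irf1 by 0.97 (0.00097).

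Of the 15 lower genes, in pericytes 7 had a positive and 8 a negative difference. By limma at an adjusted p under 0.05, 1 rose (Dpysl3, by 0.94, adjusted p = 0.0079) and 0 fell, where 1.88% and 1.24% of all genes did. In neural cells 13 were tested, with 6 positive and 7 negative, of which 4 rose and 3 fell, where 26.4% and 28.8% of all genes did. Ina rose by 0.94 in neural cells (adjusted p = 1.4e-07), and Hes5 stood at 0.02 (adjusted p = 0.93). Across genes, which are not independent replicates, the endothelial differences correlated with those in pericytes at r = 0.005 (13413 genes) and with those in neural cells at r = -0.03 (12604 genes), as a description.

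**Figure D5:**
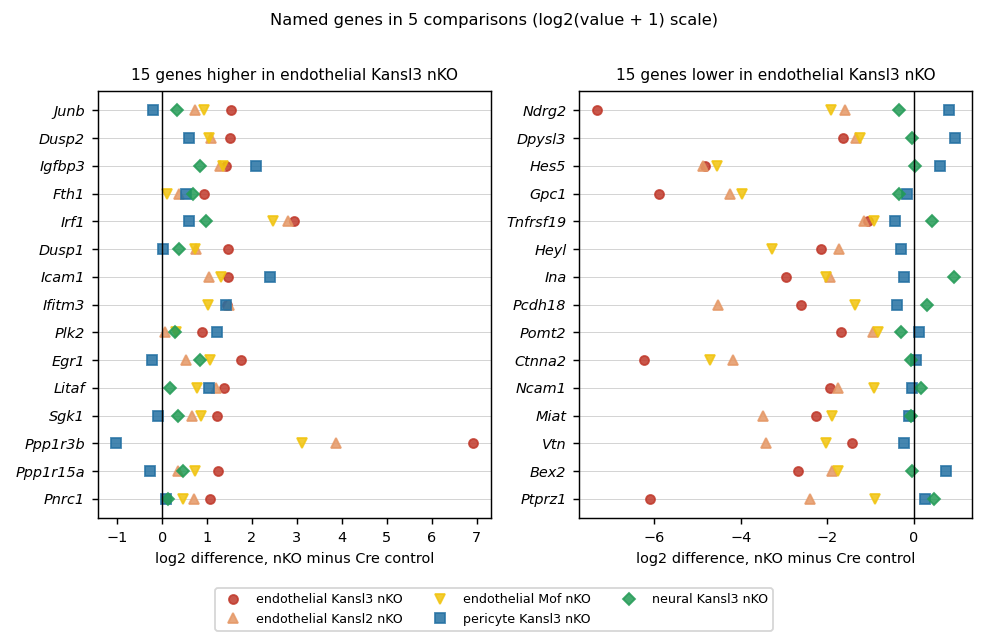
Log2 difference between nKO and Cre control libraries (horizontal axes, log2(value + 1) scale) of the 15 higher and 15 lower named genes in 5 comparisons, with a line at 0. The 3 endothelial comparisons share their 4 Cre libraries, while pericyte (squares) and neural values (diamonds) rest on other controls; pericyte values of Icam1 and Igfbp3 lie at 2.41 and 2.08.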

How the data were processed

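RNA was sequenced from sorted endothelial cells, and the 3 libraries labelled Kansl3 nKO were compared with the 4 Cre controls. The submitters' processing notes name STAR, featureCounts, DESeq2 and the build mm10, without versions. The deposited values are a signal, gene read counts that the authors divided by 1 size factor per library. The authors' deposited table gives a log2 fold change and an adjusted p-value per gene. Whole reads were recovered for 100% of values (tolerance 0.01). Libraries held 10048082 to 25260285 reads.

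Values were tested as log2(value + 1) with limma 3.58.1 (trend, two-sided, R 4.3.3) where the mean value reached 10, adjusted by Benjamini-Hochberg over all 16466. The pseudocount of 1 makes differences of low genes smaller than their folds. Alternatives were other pseudocounts and filters, quantile and TMM scaling, edgeR 4.0.16, DESeq2 1.42.0, sample quality weights and leaving out each library. limma at equal weights and edgeR were checked on simulated data in which no library stood apart. DESeq2 and the quality weights were not checked in this way. Named genes were Kansl3, Kansl2 and Kat8, the 15 with the smallest p in each direction among those with a mean of at least 50 and groups that do not overlap (without sex-linked and predicted genes), and up to 4 members of each list by p. The comparison and its lists were chosen with earlier results of these data known. 1 member of the interferon list is counted in its totals and not reported here. Promoters came from RefSeq (GRCm38.p6).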

Additional observations from a re-analysis of the deposited data

Results flagged for a closer look

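Among 75 values checked over the 4 Cre libraries (library measures, named genes and list shares), 12 had a control far from the other 3, where chance alone flags about 1 in 20. In 8 of these the control was Cre130: mitochondrial genes (7.69% of reads), the 20 highest genes (15.5%), Miat (1159 scaled reads), heat shock genes (0.585%), and low shares of blood-brain barrier transporters (0.922%, others 1.744 to 1.76%), endothelial Wnt signaling (0.305%), the unfolded protein response (0.415%) and fatty acid oxidation (0.176%). In the others it was Cre94 for the number of reads (about 2.526e+07), Cre91 for Icam1 (3078) and for neutrophil and monocyte markers (0.00556% of reads), and Cre89 for immediate early genes (0.402%, the lowest control). For Icam1 the outlying control was the highest one, and it lay below all 3 libraries labelled Kansl3 nKO.

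Several lower genes went the opposite way in another cell type labelled Kansl3 nKO, with every library above every control there. The share of all genes so separated in those cells was not computed, and the difference between cell types was not tested. In pericytes these genes were Ndrg2 (0.80, against -7.32 in endothelial cells), Dpysl3 (0.94 against -1.64), Hes5 (0.60 against -4.83) and Bex2 (0.74 against -2.68). Dpysl3 passed limma's test there (adjusted p = 0.0079), where 1.88% of all genes were called higher. Ndrg2, Hes5 and Bex2 did not (adjusted p = 0.065, 0.072 and 0.066). In neural cells the genes were Tnfrsf19 (0.42 against -1.06), Ina (0.94 against -2.96), Pcdh18 (0.32 against -2.60), Ncam1 (0.16 against -1.93) and Ptprz1 (0.47 against -6.10). All but Ncam1 (limma adjusted p = 0.068) passed in neural cells, where 26.4% of all genes were called higher.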

How the results depend on the processing

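The count of genes called moved from 0 to 2 at a pseudocount of 5 and at a mean of at least 50 (Junb and Dusp2), to 3 under quantile normalization (with Fth1), to 42 under sample quality weights and to 216 with DESeq2. It stayed at 0 at a pseudocount of 0.5, with no filter, with TMM-scaled log2 CPM and with edgeR. Leaving out each library in turn gave 0 to 16, the 16 without Cre130 and 0 without each other one. Alternatives chosen after seeing the data, all without Cre130, gave 12 with edgeR, 450 with DESeq2 and 38 with quality weights, and the authors' deposited table calls 219. All 16 genes called without Cre130 were among the 42 called under quality weights, and 11 of them among the 216 of DESeq2. Of 627 values of the named genes under alternatives, 503 kept their direction and side of the threshold, 110 passed it, and 14 changed sign, all for the 3 targeted genes. These were Kansl3 at 0.15 under quality weights (0.19 also without Cre130), 0.20 with edgeR and 0.19 with DESeq2 without Cre130, with a range of -0.46 to 0.14 when single libraries were left out; Kansl2 at 0.019 with TMM and 0.015 with edgeR, with -0.14 to 0.17 without single libraries; and Kat8 at -0.37 to 0.013 without single libraries (0.013 without Cre130) and 0.0017 with edgeR without it. Medians changed sign in some setting for 11 of 38 lists. The count in pericytes was 286 with no filter against 446, and 150 to 495 without single libraries (under 300 without each of the 4 controls and without the first or the fourth Kansl3 nKO library). In neural cells it was 6856 to 8702 against 8023. The endothelial Mof count was 1 at a pseudocount of 5, and 0 when single libraries were left out. edgeR was not run for the Mof and neural tables, where whole reads were not recovered for every library. No paired analysis was possible because the endothelial Cre and Kansl3 nKO libraries share no number in their labels: the labels give library numbers, and the replicate numbers used here only follow accession order. For Ndrg2 and Ppp1r3b, at 0 in a whole group, depth limits the fold to a bound at 3 reads per library.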
